A study of Mus musculus with 12 samples.

Results

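The genes for the subunits of the mitochondrial respiratory chain and of ATP synthase were followed in 12 RNA sequencing libraries of mouse small intestine and liver. Members were chosen by name from the deposited expression table. They are the rows whose symbol starts with Nduf, a letter a, b, c, s or v and a digit, the rows Sdha to Sdhd, and the rows that start with Uqcr, Cox4 to Cox8, Atp5, mt-Nd, mt-Co, mt-Atp or mt-Cyt. This rule found 101 of 34348 rows, of which 88 are encoded in the nucleus and 13 in the mitochondrial genome. Among the 88 nuclear rows, 5 are copies with pseudogene names (Atp5l-ps1, Atp5l-ps2, Atp5k-ps2, Uqcrh-ps1 and Uqcrh-ps2). The other 96 rows comprise 44 of complex I, 4 of complex II, 9 of complex III, 20 of complex IV and 19 of complex V, assigned by the prefix of the symbol. The prefix is only a guide for a few rows. Ndufa4 is now regarded as a subunit of complex IV, Cox7a2l is an assembly factor of supercomplexes, and Atp5s and Atp5sl are older symbols of Dmac2l and Dmac2.

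The respiratory chain passes electrons from NADH (complex I) and succinate (complex II) through ubiquinone to complex III, through cytochrome c to complex IV, and on to oxygen. Complexes I, III and IV pump protons across the inner membrane, and ATP synthase, complex V, uses their return flow to make ATP. The most hydrophobic core subunits are transcribed from mitochondrial DNA as parts of long joint transcripts, and all other subunits are made from nuclear genes and imported. Hepatocytes and absorptive enterocytes are both rich in mitochondria.

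The libraries were made from total RNA of C57BL/6 mice. Each tissue was sampled after PBS (phosphate-buffered saline, replicates 2, 3 and 4) and after LCWE (replicates 1, 2 and 4), which gives 4 groups of 3 libraries. The labels do not spell out LCWE, the usual abbreviation of a Lactobacillus casei cell wall extract that induces a vasculitis in mice, and the authors' differential table has LCWECFA in its column names, with no explanation of CFA. The labels do not say whether the libraries come from separate animals, and they give no age, dose or time, so the p-values below rest on a spread between samples that may be partly technical. Values for 3 libraries are given in the order of the replicate numbers. Levels are in RPKM, which scales the reads of a gene by its length and by the size of the library. Between 30294594 and 44921885 reads per library were assigned to genes. The members took 2.83% to 3.30% of these reads in the intestinal PBS libraries, 2.70% to 3.08% in the intestinal LCWE libraries, 5.20% to 5.63% in the liver PBS libraries and 4.54% to 5.14% in the liver LCWE libraries. The tissue labels were checked on their markers. The summed level of 5 hepatocyte markers stood at 28615 to 50355 RPKM in liver and at 192 to 449.8 RPKM in the intestine. In bulk tissue, fewer cells of a type and less RNA per cell cannot be told apart.

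Of the 13 mitochondrially encoded members, 8 stood above 1000 RPKM and 5 below 100 RPKM in every library. The 5 low rows were mt-Co2 and mt-Co3, which encode core subunits of cytochrome c oxidase, mt-Atp6 and mt-Atp8, which encode the membrane subunits of ATP synthase, and mt-Nd3, a small membrane subunit of complex I. In control intestine, mt-Co1 stood at 2657, 2627 and 2687 RPKM, while mt-Co2 stood at 30.4, 28.6 and 31.5 RPKM. In the same libraries mt-Co3 stood at 2.77, 3.27 and 2.11 RPKM. The level of mt-Atp6 there was 10.2, 9.95 and 9.99 RPKM, against 2317, 2311 and 2139.7 RPKM for mt-Cytb, the cytochrome b of complex III. These rows thus stood far apart although the genes lie on one small genome.

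The expression table also holds 7 unprocessed pseudogene rows on chromosome 1 that copy 7 of the members side by side. They lie within chr1:24611535-24616197 of mm10, a stretch of 4663 bases on the minus strand, as annotated by GENCODE M21. Gm28661 is the copy of mt-Co2, Gm10925 of mt-Atp6, Gm28437 of mt-Co3, Gm28438 of mt-Nd3, Gm10222 of mt-Nd4l, Gm28439 of a part of mt-Nd4 and Gm29216 of a part of mt-Co1. Between Gm10925 and Gm28661, where the mitochondrial genome carries mt-Atp8, the annotation leaves a gap of 233 bases with no row. Over the aligned bases the copies of mt-Co2 (681 bases), mt-Atp6 (678), mt-Co3 (783), mt-Nd4l (294) and mt-Nd4 (876) are 100% identical to the mitochondrial genes. mt-Co2 lies at MT:7013-7696, mt-Atp6 at MT:7927-8607 and mt-Co3 at MT:8607-9390, each on the plus strand as the table gives it. The first 120 bases of these 3 genes are shown because the reading of their rows turns on them. The same letters open Gm28661, Gm10925 and Gm28437, and no base is in capitals because none differs.
mt-Co2: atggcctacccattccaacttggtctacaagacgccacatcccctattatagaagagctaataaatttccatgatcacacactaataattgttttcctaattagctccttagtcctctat
mt-Atp6: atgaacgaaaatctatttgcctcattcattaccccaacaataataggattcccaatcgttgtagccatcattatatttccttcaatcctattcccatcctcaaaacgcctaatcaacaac
mt-Co3: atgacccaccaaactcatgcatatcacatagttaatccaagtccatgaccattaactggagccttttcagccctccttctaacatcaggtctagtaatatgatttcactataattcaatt
In mt-Nd3 and its copy the aligned 345 bases differ at 1 position, T3C, counted from 1 at the first base of the gene with the mitochondrial base first. The capital letter in the first 60 bases marks it.
mt-Nd3: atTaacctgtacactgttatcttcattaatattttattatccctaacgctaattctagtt
Gm28438: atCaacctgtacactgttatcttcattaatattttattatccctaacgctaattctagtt
Gm29216 and mt-Co1 differ at 1 of 483 aligned bases, A1066T. Counted in windows of 50 bases, 100% of the windows of mt-Co2 occur in another annotated gene, 99.9% of mt-Co3, 99.5% of mt-Atp6, 98.8% of mt-Nd4l and 98.0% of mt-Nd3. The share is 62.2% for mt-Nd4, 51.1% for mt-Co1, 8.19% for mt-Nd2, 7.61% for mt-Nd5 and 0% for mt-Nd1, mt-Nd6, mt-Cytb and mt-Atp8. A read of that length from a shared window cannot be told apart by its sequence. How the aligner handled such reads is not known here.

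The copies of 3 of the low rows stood far above them. In control intestine, Gm10925 stood at 8563, 8058 and 7373 RPKM and Gm28661 at 3514, 3479.8 and 3468 RPKM. In control liver, Gm10925 stood at 18016, 13747 and 14169 RPKM, where mt-Atp6 itself stood at 24.9, 15.7 and 16.9. For mt-Co2, mt-Co3 and mt-Atp6 nearly all of the joint level was thus listed under the copy. The reverse held for mt-Nd4 and mt-Nd4l. Their copies Gm28439 and Gm10222 stood at 7.36, 6.52 and 6.93 RPKM and 31.3, 24.3 and 31.2 RPKM in control intestine, against 1466, 1480.3 and 1349 RPKM and 2644, 2675 and 2376 RPKM for the mitochondrial rows. mt-Nd3 (35.2, 69.0 and 34.7 RPKM) and Gm28438 (45.1, 46.9 and 40.2 RPKM) were of like height. Of the reads that fell on mitochondrial members or on the copies, the copies held 34.3% to 37.4% in the 6 intestinal libraries and 27.6% to 33.0% in the 6 liver libraries. The levels of the 7 affected members in the table are therefore levels of rows, not of transcripts. For mt-Atp8 this is not settled. Only annotated transcripts were searched, so the gap of 233 bases between Gm10925 and Gm28661 was not compared with it. With the reads of each copy added to its member, an alternative chosen after seeing the data, mt-Co2 stood at 3529, 3493 and 3485 RPKM in control intestine and at 5855, 5315 and 5194 RPKM in control liver. On the same basis mt-Atp6 stood at 8535, 8033 and 7350.1 RPKM and 17961, 13702 and 14124 RPKM.

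**Figure D1:**
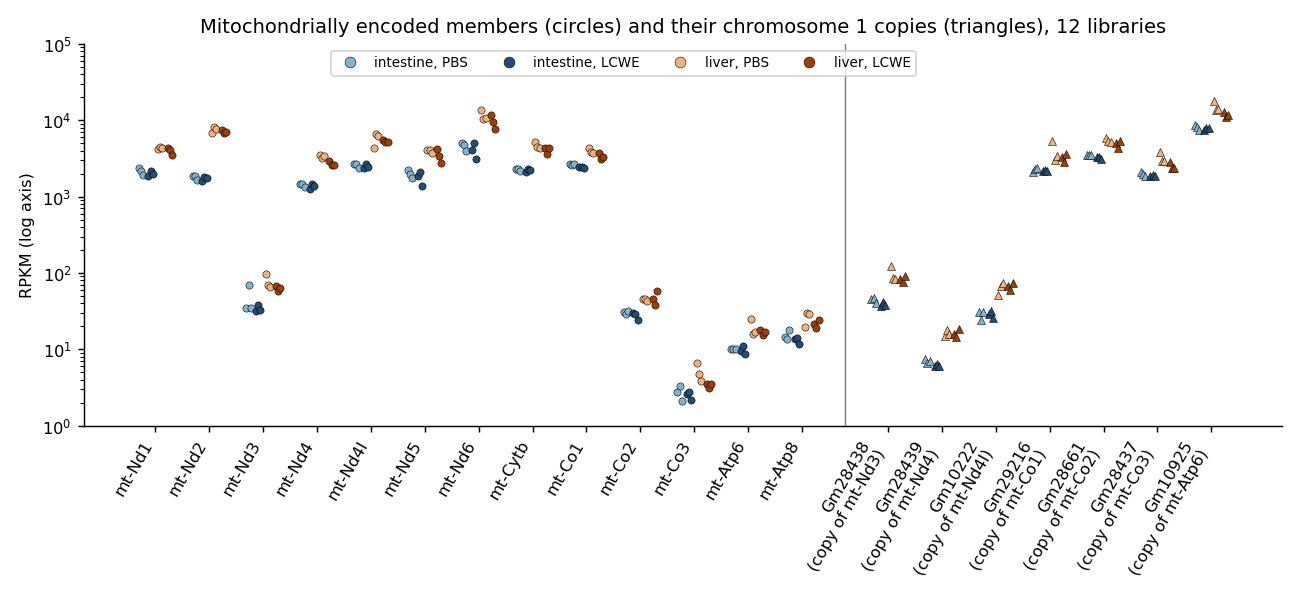
RPKM on a log axis of the 13 mitochondrially encoded members (circles) and of their 7 copies on chromosome 1 (triangles), 1 symbol per library, coloured by group. mt-Co2, mt-Co3 and mt-Atp6 lie below 100 while their copies Gm28661, Gm28437 and Gm10925 lie above 1000.

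The other mitochondrial members had the following levels. mt-Nd1, a core subunit at the quinone site of complex I, stood at 2361, 2184 and 1943 RPKM in control intestine and 4205, 4513 and 4304 RPKM in control liver. mt-Nd2, one of the proton-pumping subunits, stood at 1867, 1863 and 1657 RPKM and 6903, 8146 and 7582 RPKM. mt-Nd5, at the far end of the membrane arm, stood at 2224, 1976 and 1738 RPKM and 4059, 4096 and 3727 RPKM. mt-Nd6, the only member on the light strand, was the highest member row, at 5093, 4701 and 4002 RPKM and 13572, 10484 and 10784 RPKM. Whether strand was kept is not stated, and mt-Nd6 lies opposite the transcript that runs from mt-Nd5 to mt-Cytb, so reads of both strands cannot be told apart there. mt-Atp8 stood at 14.6, 13.8 and 18.0 RPKM and 19.3, 29.5 and 28.9 RPKM. The 2 mitochondrial ribosomal RNAs, which share the first transcript with the members, summed to 258 to 349 RPKM in control intestine and 245 to 367 RPKM in control liver.

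Nuclear members without the pseudogene copies had a median level of 41.3 RPKM in control intestine and 36.0 RPKM in control liver over 83 rows. The highest means in control intestine were those of Atp5b, the catalytic beta subunit of ATP synthase (401 ± 56.5 RPKM, mean ± SD, n = 3), and Uqcrb, a small subunit of complex III (394 ± 12.4 RPKM). In control liver their order was reversed, with Uqcrb at 377 ± 67.9 RPKM and Atp5b at 292 ± 15.1 RPKM. The 4 subunits of succinate dehydrogenase ranged in mean from 26.1 RPKM (Sdhc) to 143 RPKM (Sdha, the flavoprotein) in control intestine and from 27.7 to 168 RPKM in control liver. RPKM depends on the length the authors used. For 38 of 82 nuclear members with an annotated transcript that length exceeds the median coding transcript by more than a factor of 2, and for 8 by more than 5, which lowers their RPKM beside other genes but not the comparison of a gene between groups. Of these 82, 37 share no window of 50 bases with another gene and 16 share at least 20%, among them Atp5l (84.8%), Atp5h (47.9%) and Uqcrb (43.4%), whose rows are uncertain to that degree.

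In liver no member differed between LCWE and PBS at an adjusted p below 0.05 (limma), out of 92 that passed the filter on low levels. Of all 14404 genes tested there, 4.04% were called, 3.39% higher and 0.646% lower. The member estimates lay mostly below 0. There were 82 of 92 on the lower side, against 39.8% of all genes, and their median log2 difference was -0.15, against 0.06 for all genes. An unadjusted p below 0.05 was reached by 9 members, against 18.7% of all genes. The LCWE libraries lay below all PBS libraries for 20 members and above them for none, where all genes gave 8.84% and 18.7%. The 95% interval of the difference stayed within 1 log2 unit, a factor of 2, for 90 of 92 members. The other 2 were Cox7a1 and the copy Atp5k-ps2, both low in liver. Without LCWE replicate 4, 47 members lay below all PBS libraries (14.4% of all genes), and without PBS replicate 3, 32 did (12.2%). Without PBS replicate 2, 26 did, or 28.3% of the members against 19.5% of all genes, and 2 members lay above. The remaining runs gave 20 to 26 lower members. The 9 members that did not pass the filter in liver were Cox4i2, Cox6a2, Cox6b2, Cox7b2, Cox8b, Ndufa4l2 and the copies Atp5l-ps1, Atp5l-ps2 and Uqcrh-ps2.

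The member with the smallest p in liver was Cox7a1, the muscle isoform of a small subunit of complex IV. It stood at 2.34, 1.77 and 3.18 RPKM in PBS livers and at 1.28, 1.04 and 1.24 RPKM in LCWE livers. All LCWE values were below all PBS values, and the log2 difference was -0.77 (SE 0.19, adjusted p = 0.078), or 1.71-fold lower, which did not pass. Over the other settings its adjusted p ran from 0.0592 to 0.288. Cox4i1, the common isoform of the subunit that binds regulatory ATP, stood at 264, 221 and 234 RPKM and 190.3, 196 and 208 RPKM, a log2 difference of -0.27 (SE 0.11, adjusted p = 0.228). The groups did not overlap here either, but the difference of the means was smaller than the range of the PBS livers.

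In complex I, the iron-sulphur subunit gene Ndufs7 stood at 14.5, 13.2 and 13.8 RPKM in PBS livers and 10.4, 9.37 and 12.1 RPKM in LCWE livers, a log2 difference of -0.38 (SE 0.12, adjusted p = 0.152). The membrane subunit mt-Nd4 stood at 3464, 3235 and 3368 RPKM and 2959.9, 2569 and 2591 RPKM, a log2 difference of -0.31 (SE 0.11, adjusted p = 0.204). Ndufa9, at the junction of the arms of the complex, gave -0.25 (SE 0.10, adjusted p = 0.255). For each of these 3 the LCWE livers lay below all PBS livers, and none passed. Over all 43 tested rows of complex I, 38 were below 0 and the median was -0.15.

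Sdhd, which anchors succinate dehydrogenase in the membrane, stood at 58.5, 42.4 and 44.1 RPKM in PBS livers and 35.6, 33.7 and 41.0 RPKM in LCWE livers, a log2 difference of -0.38 (SE 0.15, adjusted p = 0.242). The other 3 subunits of complex II had overlapping groups, with log2 differences of -0.18 for Sdha, -0.15 for Sdhb and -0.10 for Sdhc. In complex III, Uqcrq, a small membrane subunit, stood at 114, 85.6 and 89.0 RPKM and 73.9, 74.0 and 70.7 RPKM, a log2 difference of -0.38 (SE 0.13, adjusted p = 0.167). Uqcrb gave -0.28 (SE 0.14, adjusted p = 0.353) and Uqcrfs1, the Rieske iron-sulphur protein, gave -0.25 (SE 0.13, adjusted p = 0.354). Both had groups that did not overlap. In complex V the smallest p belonged to Atp5h, subunit d of the stalk, at 323, 229.5 and 234 RPKM and 208, 208 and 204 RPKM, a log2 difference of -0.33 (SE 0.15, adjusted p = 0.304). Atp5s and Atp5sl, which are no core subunits of the enzyme, followed with -0.29 and -0.26. No row of complex V reached an unadjusted p below 0.05 in liver.

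Of the 13 mitochondrial members, 12 were below 0 in liver, with a median of -0.22, and none was called. After quantile scaling 9 of the 13 were below 0, with mt-Nd1, mt-Nd2 and mt-Nd4l changing sign. mt-Co3 stood at 6.63, 4.7 and 3.89 RPKM and 3.56, 3.15 and 3.49 RPKM, a log2 difference of -0.49 (SE 0.19, adjusted p = 0.226), and with the reads of its copy added the difference was -0.36 (adjusted p = 0.264). mt-Atp6 stood at 24.9, 15.7 and 16.9 RPKM and 18.1, 15.6 and 17.0 RPKM. Its log2 difference was -0.15 as listed and -0.35 with its copy (adjusted p = 0.296). mt-Co2 had a difference of 0.06 as listed and -0.14 with its copy, so its sign turned on the copy, and its sign also turned under median-ratio scaling. mt-Co1 stood at 4330.3, 3859 and 3771 RPKM and 3737, 3117 and 3289.6 RPKM (log2 difference -0.24, or -0.24 with its copy). The log2 differences of mt-Cytb (-0.18), mt-Nd5 (-0.22), mt-Nd6 (-0.28), mt-Nd3 (-0.27) and mt-Atp8 (-0.24) were likewise small, and the groups of these 5 overlapped.

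One library weighed on the liver picture. Measured as the median deviation from each gene's mean over the 6 liver libraries, the nuclear members stood at 0.28 log2 units in PBS replicate 2, at -0.07 and 0.02 in PBS replicates 3 and 4, and at -0.13, -0.14 and 0.04 in the LCWE libraries. All genes together ranged from -0.11 to 0.05, with the lowest value in PBS replicate 2. Haemoglobin genes took 0.0116% of the reads of that library and at most 0.00368% of those of the other liver libraries. The summed level of 6 fat markers was 8.20 RPKM in PBS replicate 2 and 0.149 and 0.0655 RPKM in PBS replicates 3 and 4. In the LCWE livers it was 0.0902 to 0.211 RPKM. The part of blood or fat in the member values of PBS replicate 2 was not tested. Without PBS replicate 2 the median log2 difference of the members was -0.06 and 64 of 92 were below 0. Median-ratio scaling gave 92 of 92 below 0 and quantile scaling 80 of 92. The direction of the median was thus kept, while its size rested on that library and on the scaling. The median of all liver genes also shifts, by -0.087 with median-ratio scaling, -0.095 with quantile scaling and -0.044 without PBS replicate 2. Macrophage and neutrophil markers moved with the LCWE livers. The summed level of 6 macrophage markers was 121 to 172 RPKM in PBS and 318 to 588 RPKM in LCWE livers (4 of 6 called higher), and that of 5 neutrophil markers was 1.54 to 4.36 and 16.6 to 33.4 RPKM (3 of 3 tested called higher). The hepatocyte markers summed to 50355, 36113 and 35733 RPKM in PBS and 28615, 30544 and 32106 RPKM in LCWE livers. Singly, 4 of these 5 were below 0 and 1 above, with log2 differences from -0.60 to 0.39, and none was called. The part of these cell types in the member differences was not tested.

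**Figure D2:**
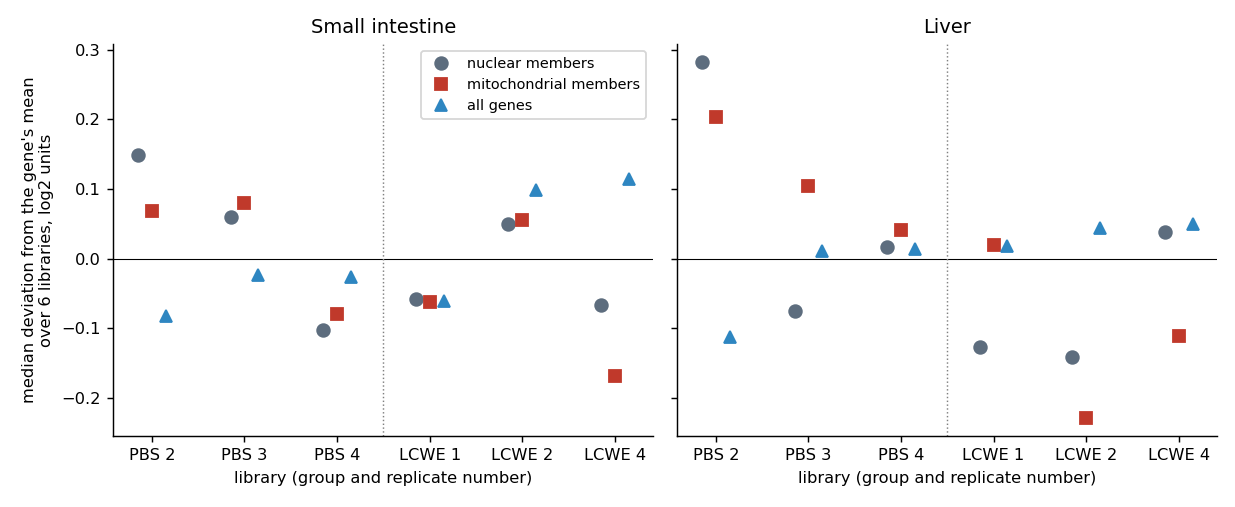
Median deviation of nuclear members, mitochondrial members and all tested genes from their mean over the 6 libraries of a tissue, in log2 units, for each library. In liver PBS replicate 2 the nuclear members stand at 0.28 while all genes stand at -0.11.

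In the small intestine no member was called either, out of 95 tested, and 0% of all 17510 genes were called there. The members leaned to the lower side. There were 72 of 95 below 0, against 31.0% of all genes, with a median log2 difference of -0.07, against 0.11 for all genes. An unadjusted p below 0.05 was reached by 3 members, against 12.6% of all genes. The groups did not overlap for 8 members that were lower and 2 that were higher after LCWE, where all genes gave 6.15% and 13.2%. Without PBS replicate 4 there were 43 lower members (9.77% of all genes), and without LCWE replicate 2 there were 22 (8.74%). The remaining runs gave 8 to 10 lower members. The member share was below that of all genes without PBS replicate 2 (8.42% against 9.02%) and without LCWE replicate 1 (9.47% against 12.2%). Without LCWE replicate 1 the higher members numbered 6 (42.2% of all genes), and 4 without PBS replicate 2 (17.9%). The 6 members not tested in the intestine were Cox7b2, Cox8b and the copies Atp5k-ps2, Atp5l-ps1, Atp5l-ps2 and Uqcrh-ps2. The interval of the difference stayed within 1 log2 unit for 92 of 95, and the exceptions were Cox6b2, Cox7a1 and Cox4i2, all isoform genes of complex IV with restricted expression.

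Cox6b2, the testis isoform of a subunit on the outer face of complex IV, stood at 7.75, 8.77 and 8.25 RPKM in PBS intestine and at 7.02, 3.88 and 4.1 RPKM in LCWE intestine. LCWE replicate 1 lay close to the controls and the other LCWE libraries well below it. The log2 difference was -0.71 (SE 0.21, adjusted p = 0.297), or 1.64-fold lower, and without LCWE replicate 1 it was -0.96 with an adjusted p of 0.0374 (limma). It was the only member called in an LCWE comparison under any of the settings run. Over all settings its adjusted p ran from 0.0374 to 0.669. The authors' deposited table lists 1 member among its 1001 rows, Cox6b2 in the intestine, with a log2 fold change of -1.03 and a false discovery rate of 0.479.

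For Cox7a1 the PBS libraries of the intestine gave 92.4, 66.4 and 44.9 RPKM, and the LCWE libraries gave 38.8, 47.5 and 28.5 RPKM. The groups overlapped through PBS replicate 4 and LCWE replicate 2, and the log2 difference of -0.79 (SE 0.29, adjusted p = 0.358) did not pass. The means differed by less than the range of the PBS libraries. Cox4i2, the isoform of lung and of low oxygen, stood at 0.332, 0.991 and 0.670 RPKM and 0.694, 1.5 and 1.27 RPKM, with overlapping groups and a log2 difference of 0.51 (SE 0.28, adjusted p = 0.466).

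In complex V, Atp5g3, one of 3 genes for the c subunit of the rotor ring, stood at 34.4, 31.3 and 28.4 RPKM in PBS and 27.6, 26.5 and 24.3 RPKM in LCWE intestine. The groups did not overlap, and the log2 difference was -0.26 (SE 0.11, adjusted p = 0.388). Next in that complex came Atp5sl (0.18), whose groups did not overlap, and mt-Atp8 (-0.21), whose groups did. In complex I the smallest p values belonged to Ndufa6 (187, 171 and 161 against 161, 142 and 146 RPKM, log2 difference -0.21), Ndufa4 (-0.19) and Ndufa7, which was higher (9.9, 8.68 and 10.3 against 10.8, 10.5 and 11.8 RPKM, log2 difference 0.19). The 3 are accessory subunits and none came near the threshold, with adjusted p from 0.447 to 0.468. In complex II, all 4 subunits were below 0, from -0.18 for Sdhb to -0.04 for Sdhd, and their groups overlapped. In complex III, Uqcrc1 (-0.18), Uqcrfs1 (-0.17) and the copy Uqcrh-ps1 (-0.29) had the smallest p values, with adjusted p of 0.507 or more and overlapping groups.

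All 13 mitochondrial members were below 0 in the intestine, with a median log2 difference of -0.11 and a range from -0.35 (mt-Nd3) to -0.03 (mt-Cytb), but none had an unadjusted p below 0.05, and after quantile scaling 10 of 13 were below 0. mt-Nd2 stood at 1583, 1798 and 1753 RPKM after LCWE and mt-Nd1 at 1856, 2168 and 2001 RPKM, and both overlapped with their controls. The groups stood apart only for mt-Co1, at 2657, 2627 and 2687 RPKM in PBS and 2473, 2432 and 2386 RPKM in LCWE libraries. Of the mt-Nd3 values, PBS replicate 3 stood at 69.0 RPKM against 35.2 and 34.7 in the other controls.

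Marker sums of other cells were read beside the intestinal values. The summed level of 9 enterocyte markers was 28323, 21419.7 and 15450.4 RPKM in PBS and 10680.4, 6953 and 3693 RPKM in LCWE libraries, and none of the 9 was called. The 4 ileal markers summed to 425, 2368 and 3920.2 and 6301, 5591 and 4185 RPKM, and none was called. Fat markers summed to 2.96, 20.5 and 38.9 and 1.53, 0.913 and 1.01 RPKM, with Ucp1, which defines brown fat, at 0 in all 6 intestinal libraries. Striated muscle markers summed to 5.89, 7.83 and 14.5 and 47.8, 7.93 and 9.87 RPKM, and smooth muscle markers to 929, 1405 and 1446 and 1059, 1263 and 1808 RPKM. The enterocyte, ileal and fat sums did not overlap between the groups, and the striated and smooth muscle sums did. The part of these cells in the values of Cox7a1, Cox6b2 or any other member was not tested.

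**Figure D3:**
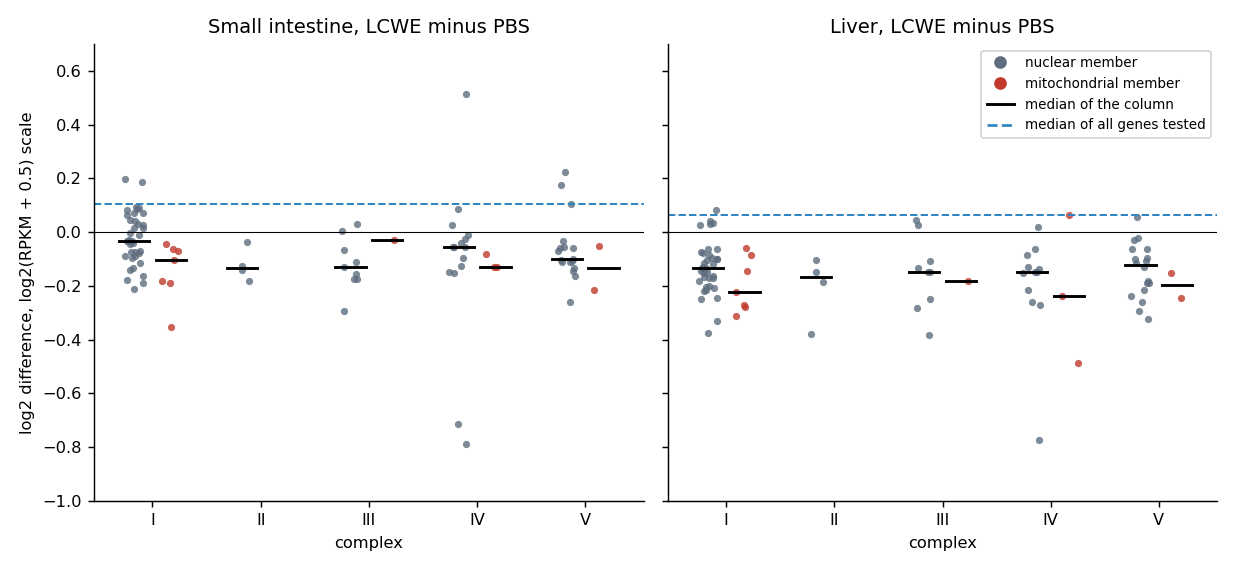
Log2 difference of LCWE minus PBS of each tested member, by complex and origin, in small intestine (left, 95 members) and liver (right, 92 members), with the median of each column as a bar and the median of all genes tested as a dashed line. Most members lie below 0 in both tissues, and none was called.

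The difference between the tissues in the LCWE effect was tested for 96 members, and none was called, against 0.736% of 18619 genes (0.532% higher and 0.204% lower). Below 0 stood 72 of 96 members and 51.5% of all genes. An unadjusted p below 0.05 was reached by 4 members, against 12.8% of all genes. Atp5sl had the smallest p. In the intestine it stood at 8.21, 7.39 and 7.45 RPKM in PBS and 8.25, 9.55 and 8.46 RPKM in LCWE, and in liver at 7.24, 7.68 and 7.04 and 6.67, 5.06 and 6.48 RPKM. It was thus above its controls in one tissue and below them in the other, with a liver minus intestine difference of -0.43 (SE 0.16, adjusted p = 0.275). Atp5s gave -0.52 (SE 0.20, adjusted p = 0.289) and Ndufs7 -0.47 (SE 0.18, adjusted p = 0.304), and Ndufa7 followed with -0.43. The interval of the difference stayed within 1 log2 unit for 92 of 96 members. The median was -0.09, against -0.01 for all genes.

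Between the tissues themselves the members differed far more. In control liver against control intestine, 43 of 94 tested members were called, 28 higher in liver and 15 lower. Of all 17253 genes, 77.6% were called, 16.9% higher and 60.7% lower. The tissues did not overlap for 32 members higher and 18 lower in liver, against 18.0% and 63.3% of all genes. The direction depends on the scale. As deposited, the median of all genes was -0.71, and it was 0.01 after quantile and -0.01 after median-ratio scaling, and the member calls became 50 higher and 5 lower, and 74 higher and 2 lower, respectively. The median of the members was 0.06 as deposited, 0.39 with quantile and 0.87 with median-ratio scaling, each above that of all genes. Directions below hold for the deposited scale unless said otherwise.

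All 13 mitochondrial members were called higher in liver as deposited and with median-ratio scaling. After quantile scaling 11 of 13 were called, without mt-Co1, which changed sign, and mt-Nd4l. The largest difference was that of mt-Nd2, 4.2-fold, with a log2 difference of 2.07 (SE 0.12, adjusted p = 5.68e-06). mt-Nd6 was 2.52-fold higher and mt-Nd4 2.34-fold higher, and mt-Nd1, mt-Nd5 and mt-Cytb were 2.01-fold, 2.01-fold and 2.05-fold higher. mt-Nd4l was 2.18-fold and mt-Co1 1.5-fold higher. mt-Co2 (1.47-fold), mt-Co3 (1.72-fold), mt-Atp8 (1.64-fold) and mt-Nd3 (1.73-fold) passed as well, although the groups of mt-Nd3 overlapped. With the reads of the copies added, mt-Co2 was 1.56-fold, mt-Co3 1.62-fold and mt-Atp6 1.9-fold higher in liver, close to the 1.83-fold of mt-Atp6 alone. Mitochondrial rows made up 62.1% to 63.7% of member reads in control intestine and 79.0% to 80.9% in control liver. With the copies included, mitochondrial rows and copies together held 2.52 to 2.73 times the reads of the nuclear members in control intestine and 5.60 to 5.90 times in control liver. The ribosomal RNAs mt-Rnr1 (log2 difference 0.19) and mt-Rnr2 (-0.12) did not pass. Lrpprc, which stabilises mitochondrial messenger RNA, was 1.69-fold higher in liver (adjusted p = 0.000797). It is 1 of 15 tested factors of mitochondrial transcription, replication and mRNA stability, which went both ways. Of these 15, 5 were called higher and 4 lower in liver as deposited. There were 6 above 0 and 9 below, with a median log2 difference of -0.08, against -0.71 for all genes. The part of these factors in the mitochondrial levels was not tested.

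The 81 nuclear members tested split evenly, with 15 called higher and 15 lower in liver as deposited. By complex, 13 of 37 nuclear rows of complex I were called higher and 1 lower, 2 of 9 of complex III higher and 4 lower, 0 of 13 of complex IV higher and 4 lower, and 0 of 18 of complex V higher and 6 lower. No row of complex II was called. These counts follow the prefix of the symbol, so Ndufa4, called higher, stands under complex I. They include the copy Uqcrh-ps1, called lower, under complex III and the copy Atp5k-ps2 under complex V. After median-ratio scaling the nuclear counts were 35 higher of 37 for complex I, 5 higher and 2 lower of 13 for complex IV and 11 higher of 18 for complex V. The order of the medians was kept among these 3 complexes, at 0.24, -0.31 and -0.12 as deposited, 0.63, -0.09 and 0.14 with quantile and 0.94, 0.50 and 0.57 with median-ratio scaling. No test of the difference between complexes was made.

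Among the nuclear members called higher in liver, the 2 largest differences were those of Ndufa4 and Uqcrq. Ndufa4 stood at 26.8, 25.1 and 24.1 RPKM in control intestine and 53.9, 40.8 and 44.2 RPKM in control liver, 1.8-fold higher, with a log2 difference of 0.85 (SE 0.13, adjusted p = 0.000682). Uqcrq stood at 61.0, 54.4 and 48.4 and 114, 85.6 and 89.0 RPKM, 1.75-fold higher, with a log2 difference of 0.80 (SE 0.15, adjusted p = 0.00185). The tissues stood apart in both, by more than the spread in either. The other nuclear members called higher were Uqcr11 and 12 accessory and core rows of complex I, from 1.25-fold (Ndufb4) to 1.58-fold (Ndufb9). Most of these 12 are small accessory subunits, such as Ndufa1, Ndufa2, Ndufa6, Ndufa13 and Ndufb11, while Ndufs3 (1.4-fold) is a core subunit of the peripheral arm.

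On the lower side, 13 of the 15 calls were at most 1.68-fold, and these 13 changed sign with median-ratio scaling, where 2 of them, Atp5a1 and Uqcrc2, were called higher in liver. With quantile scaling 5 of the 15 stayed called, Atp5b, Atp5a1, Uqcrh, Cox6b2 and Cox7a1. As deposited, the 13 include Atp5o (1.68-fold lower), which couples the stalk to the head of ATP synthase, the catalytic subunits Atp5a1 (1.3-fold) and Atp5b (1.36-fold), and Uqcrc1 (1.38-fold), a core protein of complex III. They also include the copy Uqcrh-ps1 (1.4-fold) and Ndufa12 (1.38-fold). The other 2, Cox7a1 and Cox6b2, were called lower in liver under each scaling that was run. Cox6b2 passed the filter only through its intestinal libraries, so its call adds no support.

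**Figure D4:**
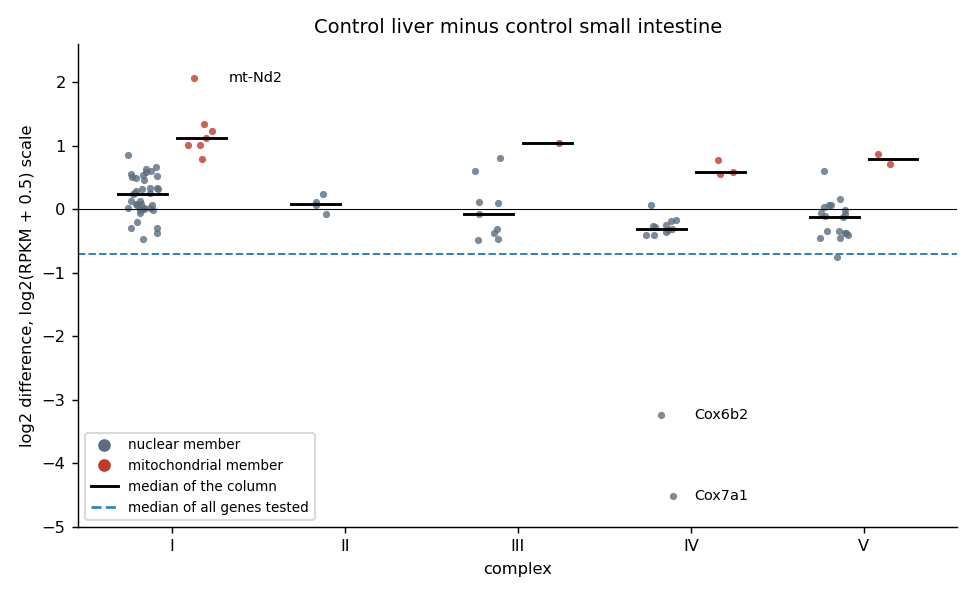
Log2 difference of control liver minus control small intestine of 94 members by complex and origin, with column medians as bars and the median of all genes tested, -0.71, as a dashed line. Mitochondrial members lie above 0, and Cox7a1 and Cox6b2 lie far below the other members.

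Complex IV has several subunits with paired isoform genes, and the tissues differed most in which of these was used. Cox7a1 stood at 92.4, 66.4 and 44.9 RPKM in control intestine and 2.34, 1.77 and 3.18 RPKM in control liver, 22.8-fold lower in liver, with a log2 difference of -4.51 (SE 0.29, adjusted p = 1.03e-05). Its common partner Cox7a2 stood at 21.3, 21.3 and 16.9 RPKM and 16.9, 15.5 and 16.6 RPKM, with a log2 difference of -0.27. Cox7a1 made up 81.2, 75.7 and 72.6% of the summed RPKM of the pair in control intestine, 66.9, 70.6 and 61.4% after LCWE, 12.2, 10.3 and 16.1% in control liver and 8.24, 6.98 and 6.02% in LCWE liver. The muscle isoform was thus the larger row in every intestinal library and the smaller row in every liver library, and its share in the LCWE libraries lay below that in the PBS libraries of the same tissue. Striated muscle markers stood at 5.89 to 14.5 RPKM in sum in control intestine, where the muscle creatine kinase Ckm had 1.46, 2.09 and 1.89 RPKM, and smooth muscle markers at 929 to 1446 RPKM. In control liver the sums were 0.391 to 0.458 RPKM and 9.57 to 14.3 RPKM. The part of muscle cells in the level of Cox7a1 was not tested.

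Cox6b2 stood at 7.75, 8.77 and 8.25 RPKM in control intestine and 0.364, 0.554 and 0.367 RPKM in control liver, with means of 8.26 and 0.428 RPKM. With 0.5 RPKM added before the log, the log2 difference was -3.24, or 9.46-fold lower in liver. That fold depends on the added value. Cox6b2 did not pass the filter in liver and was tested here only through its intestinal libraries, so its call adds no support. Its common partner Cox6b1 stood at 99.3, 97.7 and 88.7 RPKM and 89.0, 63.1 and 72.4 RPKM. Cox6b2 made up 8.0% ± 0.665 of the pair in control intestine and 5.47% ± 1.63 after LCWE (mean ± SD, n = 3), and 0.217% to 0.871% in the 6 liver libraries. In the other pairs the restricted gene was at or near the floor. Cox4i2 made up at most 0.569% of its pair with Cox4i1 in any library, and Cox6a2, the muscle isoform beside Cox6a1, at most 1.88%. Cox8b stood above 0 in 3 of 12 libraries and Cox7b2 in 1 of 12, and no row named Cox8c was found by the rule. Ndufa4l2, a gene induced by low oxygen, made up at most 5.01% of its pair with Ndufa4. Among the genes of the c subunit of ATP synthase, Atp5g3 had the highest RPKM in all 12 libraries, with 28.3, 21.7 and 22.6 RPKM in control liver. Atp5g1 stood at 4.02, 3.47 and 3.0 RPKM and Atp5g2 at 5.6, 5.69 and 5.89 RPKM in control intestine and 3.84, 3.45 and 3.06 RPKM and 6.21, 3.15 and 4.25 RPKM in control liver.

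**Figure D5:**
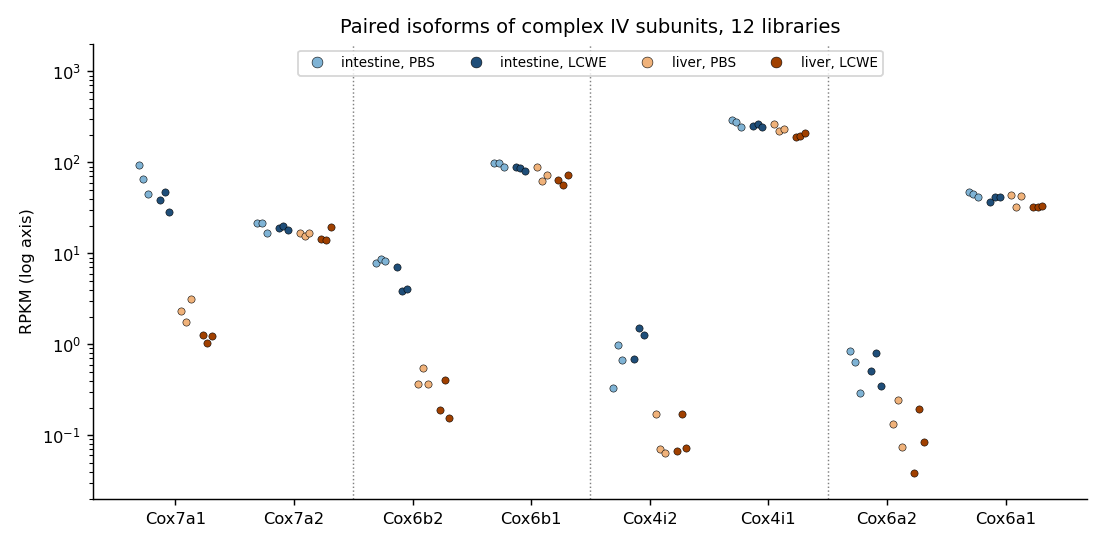
RPKM on a log axis of 4 isoform pairs of complex IV in 12 libraries, the restricted isoform left and the common isoform right in each pair, coloured by group. Cox7a1 and Cox6b2 are higher in every intestinal library than in every liver library, while each common isoform except Cox7a2 in the intestine lies above its restricted partner.

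The promoters of nuclear members are known for binding sites of NRF1, of the ETS factor GABP, of YY1 and of the oestrogen-related receptors. RefSeq promoter windows of GRCm38.p6, 300 bases each, matched 69 of 83 nuclear members by symbol, with 75 windows. The full palindromic NRF1 motif occurred on either strand in 6.67% of the member windows and 0.971% of all 32851 windows. The shorter letters TGCGCA, searched as an NRF1 core, occurred in 25.3% and 7.76%. The full motif as searched does not contain these letters, so the shares are not nested. CCGGAAG (ETS) occurred in 21.3% and 8.86%, AAGATGGC (YY1) in 16.0% and 2.75%, and TCAAGGTCA (oestrogen-related receptors) in 2.67% and 0.423%. These are matches of letters, not sites. The 250 bases before the RefSeq start of the 2 pairs that differ most in use are shown, read on the strand of the gene, with the only match in capitals. It is the ETS letters on the opposite strand, 28 bases before the RefSeq start of Cox6b1. The gene models of the expression table begin elsewhere, and Cox6b1, on the minus strand, reaches to position 30626151 there, so that these letters lie inside the gene as the table gives it. The last bases printed for Cox7a1 and Cox7a2 also lie inside the table's genes, and those for Cox6b2 do not. None of the 5 motifs is found in the windows of Cox7a1, Cox7a2 or Cox6b2.
Cox7a1 (chr7:30183921-30184170, plus strand): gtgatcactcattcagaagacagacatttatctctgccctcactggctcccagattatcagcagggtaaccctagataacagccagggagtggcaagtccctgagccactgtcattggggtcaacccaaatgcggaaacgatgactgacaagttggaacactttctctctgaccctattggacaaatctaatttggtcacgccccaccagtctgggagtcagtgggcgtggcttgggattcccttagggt
Cox7a2 (chr9:79759854-79760103, minus strand): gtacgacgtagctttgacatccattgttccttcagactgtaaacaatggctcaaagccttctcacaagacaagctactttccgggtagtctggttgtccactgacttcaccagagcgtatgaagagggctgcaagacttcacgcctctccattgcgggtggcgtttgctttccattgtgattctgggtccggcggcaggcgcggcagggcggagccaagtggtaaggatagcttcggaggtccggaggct
Cox6b2 (chr7:4753095-4753344, minus strand): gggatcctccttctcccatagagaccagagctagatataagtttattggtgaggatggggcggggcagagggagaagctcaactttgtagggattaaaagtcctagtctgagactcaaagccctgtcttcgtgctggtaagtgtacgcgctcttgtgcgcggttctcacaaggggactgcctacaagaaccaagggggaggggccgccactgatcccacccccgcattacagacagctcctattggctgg
Cox6b1 (chr7:30626115-30626364, minus strand): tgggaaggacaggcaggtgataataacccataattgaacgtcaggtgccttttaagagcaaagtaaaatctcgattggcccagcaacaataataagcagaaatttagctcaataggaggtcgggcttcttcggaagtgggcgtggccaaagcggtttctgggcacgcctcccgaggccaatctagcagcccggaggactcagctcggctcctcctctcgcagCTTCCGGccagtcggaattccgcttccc

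Genes around the chain were read from lists. Of 3 electron carriers and subunits outside the name rule, cytochrome c1 (Cyc1), cytochrome c (Cycs) and the acyl carrier protein Ndufab1, none was called in either LCWE comparison. Cyc1 and Cycs were called lower in control liver than in control intestine as deposited, 1.28-fold and 2.24-fold. Of 47 assembly factors, none was called after LCWE in intestine (46 tested) or liver (47 tested). Between the control tissues, 18 of the 47 were called higher and 12 lower in liver as deposited. Of all genes, 16.9% were called higher and 60.7% lower there, and these directions depend on the scale. The factors of mitochondrial transcription, replication and mRNA stability (15 tested), the regulators of mitochondrial biogenesis (11 tested in intestine, 9 in liver), the citric acid cycle (17 tested) and targets of hypoxia (8 tested in intestine, 6 in liver) also had no call in either LCWE comparison. Tfam, which packs and transcribes mitochondrial DNA, stood at 12.5, 11.4 and 11.4 RPKM in PBS livers and 9.39, 10.6 and 10.1 RPKM in LCWE livers, a log2 difference of -0.21 (SE 0.10, adjusted p = 0.31). It was the only 1 of the 15 tested in its list whose groups did not overlap in liver, against 27.5% of all genes. Of these 15, 9 were above 0 in liver and 6 below, with a median log2 difference of 0.04. Of all genes 39.8% were below 0 there, with a median of 0.06. In the intestine 14 of the 15 were above 0 and 1 below, with a median of 0.21. All genes leaned the same way there, with 31.0% below 0 and a median of 0.11. The groups did not overlap in the intestine for 3 of the 15, all higher after LCWE, against 13.2% of all genes that were higher.

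The calls among these lists in liver were outside the chain. Of 17 genes of glycolysis, 2 were called higher in LCWE livers, against 3.39% of all genes. They were the pyruvate kinase gene Pkm (4.09, 3.62 and 4.16 RPKM to 7.73, 7.79 and 9.83 RPKM, 2.0-fold, adjusted p = 0.0137, limma) and the hexokinase gene Hk2 (1.65-fold, adjusted p = 0.038). As a list the 17 did not rise, with 7 above 0, 10 below and a median log2 difference of -0.06. Of 10 tested inhibitor and exchange proteins, 1 was called, Ucp2, an inner membrane carrier, from 2.07, 1.53 and 1.72 RPKM to 3.0, 3.68 and 3.41 RPKM (1.7-fold higher, adjusted p = 0.0347). Of these 10, 4 were above 0 and 6 below, with a median of -0.06. Pkm, Hk2 and Ucp2 were named after their values were seen. They stand beside the macrophage and neutrophil sums given above, whose part in them was not tested. Ppargc1a, the coactivator that drives mitochondrial biogenesis, stood at 0.775, 1.29 and 1.12 RPKM in PBS livers and 2.48, 1.67 and 2.32 RPKM in LCWE livers. Its groups did not overlap, and the log2 difference of 0.77 (SE 0.19, adjusted p = 0.0744) did not pass here, while the authors' deposited table gives it a log2 fold change of 1.02 and a false discovery rate of 0.0126. Between the control tissues, Atpif1, the inhibitor of ATP synthase, was 13.4-fold lower in liver (335, 304 and 265 against 25.5, 19.5 and 21.1 RPKM), with a log2 difference of -3.75 (SE 0.14, adjusted p = 7.25e-07). In the LCWE comparisons it had log2 differences of -0.10 in intestine and -0.10 in liver, with overlapping groups.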

How the data were processed

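Total RNA of small intestine and liver was sequenced, and 12 of the 16 library columns of the deposited table were used; 4 columns belong to no sample used here. Per the submitters' processing notes, Trimmomatic 0.36, featureCounts of Subread 1.5.1, edgeR 3.12.1 and mm10 were used. Which aligner was used was not given in the sources used here. Deposited by the authors were RPKM per gene and a differential table with p-values, false discovery rates and log2 fold changes, from which values are quoted by name. RPKM times length gave whole reads for 100% of values (tolerance 0.001).

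The test was limma 3.58.1, run under R 4.3.3 on log2(RPKM + 0.5) (trend, two-sided, Benjamini-Hochberg over all genes tested, adjusted p below 0.05), for genes with at least 0.5 RPKM in 3 libraries. Each LCWE comparison and the tissue comparison used the libraries of its groups, and the difference between tissues used all 12. Fold changes are on that scale, which understates low genes. The script was tested on simulated data.

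Members and lists were chosen with earlier results of these data known. Named genes are the 13 mitochondrial members, the 3 smallest p-values per complex in each LCWE comparison, members called there, isoform pairs, the 5 largest called tissue differences in each direction and the 3 smallest p-values for the difference between tissues. Other pseudocounts, filters, scalings, voom on recovered reads, a joint fit, a replicate block, leaving out each library and, chosen after seeing the data, adding the reads of the chromosome 1 copies were tried.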

Additional observations from a re-analysis of the deposited data

Results flagged for a closer look

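Among the genes of all lists, 3 had an effect of LCWE that differed between the tissues by the test of the difference itself (limma, liver minus intestine), and none of them is a subunit gene. The macrophage receptor gene Marco had a log2 difference between tissues of 3.59 (adjusted p = 0.0418). The pyruvate kinase gene Pkm had a log2 difference of 1.42 (adjusted p = 0.0178). The neutrophil gene S100a9 had a log2 difference of 2.66 (adjusted p = 0.0463).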

How the results depend on the processing

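In the intestine, median-ratio scaling moved the median log2 difference of the members to -0.19, and it shifts the median of all genes by -0.10. Leaving out 1 library at a time gave 0 to 1 members called, with 1, Cox6b2, without LCWE replicate 1, and medians from -0.14 to -0.02. In liver, leaving out 1 library gave 0 calls each time and medians from -0.21 to -0.06. The difference between tissues kept 0 calls, and its median ran from -0.16 to 0.01. For control liver against control intestine, the median was 0.39 with quantile and 0.87 with median-ratio scaling, where 76 members were called in place of 43. Of the 15 members called lower in control liver, 13 changed sign with median-ratio scaling, 2 of these being called higher, and 4 changed sign with quantile scaling. Of the 28 called higher, mt-Co1 changed sign with quantile scaling. Leaving out 1 library gave 31 to 55 calls and medians from -0.04 to 0.14. This median changed sign without liver PBS replicate 2 (-0.04) and without intestine PBS replicate 4 (-0.0031), and that of the difference between tissues without liver PBS replicate 2 (0.01).

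The replicate numbers are not stated to pair the libraries, and deviations of libraries with the same number correlated at -0.08 to 0.11. With a replicate block, 0 members were called in either LCWE comparison and 39 between the control tissues. With 3 libraries a group, small differences could not be resolved, and the RPKM of rows that share sequence with copies depends on how reads were placed.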
